A study of Arabidopsis with 14 samples.

Results

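Gibberellins are growth hormones whose amount in plant tissue is set late in their pathway by 3 classes of 2-oxoglutarate-dependent oxidases. GA 20-oxidases and GA 3-oxidases carry out the last steps of synthesis and yield the bioactive forms, whereas GA 2-oxidases inactivate either the bioactive forms or their precursors. Bioactive gibberellin binds the GID1 receptors, which leads to degradation of the DELLA proteins, repressors of growth. Through feedback, active gibberellin lowers transcripts of several 20-oxidase and 3-oxidase genes and raises those of several 2-oxidase genes. In Arabidopsis seedlings under salt, lower gibberellin and slower growth are known to go together.

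The genes described here are 10 gibberellin oxidase genes of Arabidopsis thaliana, picked by their loci from the 37980 genes listed in each file. They comprise the 20-oxidase genes GA20OX1 (AT4G25420), GA20OX2 (AT5G51810) and GA20OX3 (AT5G07200), the 3-oxidase gene GA3OX1 (AT1G15550), and the 2-oxidase genes GA2OX1 (AT1G78440, listed as ATGA2OX1), GA2OX2 (AT1G30040), GA2OX4 (AT1G47990), GA2OX6 (AT1G02400), GA2OX7 (AT1G50960) and GA2OX8 (AT4G21200). None of the 10 overlaps another annotated gene in the TAIR10.1 gene table. Their transcripts were measured by mRNA-Seq in 14 libraries, 2 for each of 7 groups.

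All libraries came from whole seedlings of the Col-0 accession, taken at 10 days after germination under a cycle of 8 h light and 16 h dark. The genotypes were WT, a line labelled AtC3H3 OX and a line labelled AtC3H26 OX, where OX stands for overexpression, and both genes encode CCCH zinc-finger proteins that are paralogs of each other. According to the methods, the AtC3H3 transgene was HA-tagged, driven by a modified CaMV 35S promoter and carried by homozygous T3 lines, and the labels do not say which line was sequenced. Each genotype had 1 group treated with 150 mM NaCl, for which the labels give 1, 2 and 4 h and the methods state, for WT and AtC3H3 OX, that the RNA of these hours was pooled. The untreated groups were AtC3H3 OX, AtC3H26 OX and 2 sets of WT seedlings, here WT set 1 and WT set 2, which the labels do not assign to a line. Values are FPKM, fragment numbers corrected for the length of a transcript and the size of a library. Levels of different genes can thus be set side by side. Read counts per gene are unknown, and the study reports read numbers only for the WT and AtC3H3 OX NaCl libraries.

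The libraries summed to 665439 to 729899 FPKM, and replicates of a group correlated at 0.970 to 0.975 (Pearson r across genes on log2(FPKM + 1); genes are not independent replicates). The transgene check in these libraries went against the labels, although the study selected its AtC3H3 OX lines for AtC3H3 overexpression by qRT-PCR. AtC3H3 was listed at 14.8 and 13.5 FPKM in the NaCl libraries labelled AtC3H3 OX and at 20.7 and 23.0 FPKM in the WT ones, and AtC3H26 was at 5.11 and 4.39 FPKM in the NaCl libraries labelled AtC3H26 OX and at 7.97 and 7.50 FPKM in the WT ones. Both differences were called by limma, but not without a filter on low values (adjusted p = 0.0953 and 0.0748) or without either WT NaCl library. Without NaCl neither gene was called between its line and WT. There AtC3H3 was at 4.204 to 4.861 FPKM in its line and 5.375 to 6.465 FPKM in WT. AtC3H26 was at 2.343 to 2.509 FPKM in its line and 2.57 to 3.531 FPKM in WT. Groups are therefore called by their labels, and a difference between a line and WT below is a difference between libraries so labelled. RD29A, RD29B, COR15A and DREB2A, transcripts known to rise under salt, were higher in every NaCl library than in any untreated library (RD29A 1797 to 2412 FPKM against 43.4 to 138 FPKM).

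To see how the oxidase genes responded to salt, NaCl libraries were compared with untreated libraries within each genotype. GA2OX6, GA2OX7 and GA2OX2 rose in all 3 genotypes, by about 13-fold for GA2OX6 in WT (ratio of mean FPKM 13.1). GA20OX2 and GA2OX1 fell in all 3, and GA3OX1 fell in WT and AtC3H26 OX. Of the 8 members tested in WT, 4 rose and 3 fell at an adjusted p under 0.05 by limma, where 25.6% of all genes tested rose and 25.5% fell, so that 51.1% of all genes were called. One of the 4 that rose (GA2OX7) reached the filter on low values, 1 FPKM in 2 libraries, only through the group in which it was higher. NaCl libraries also differed from untreated ones in the transfer to filter paper and possibly in the hour of harvest, since no mock transfer is described, and these cannot be told apart from NaCl. Likewise, in whole seedlings a lower level through fewer cells of a type and one through less RNA per cell cannot be told apart.

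**Figure D1:**
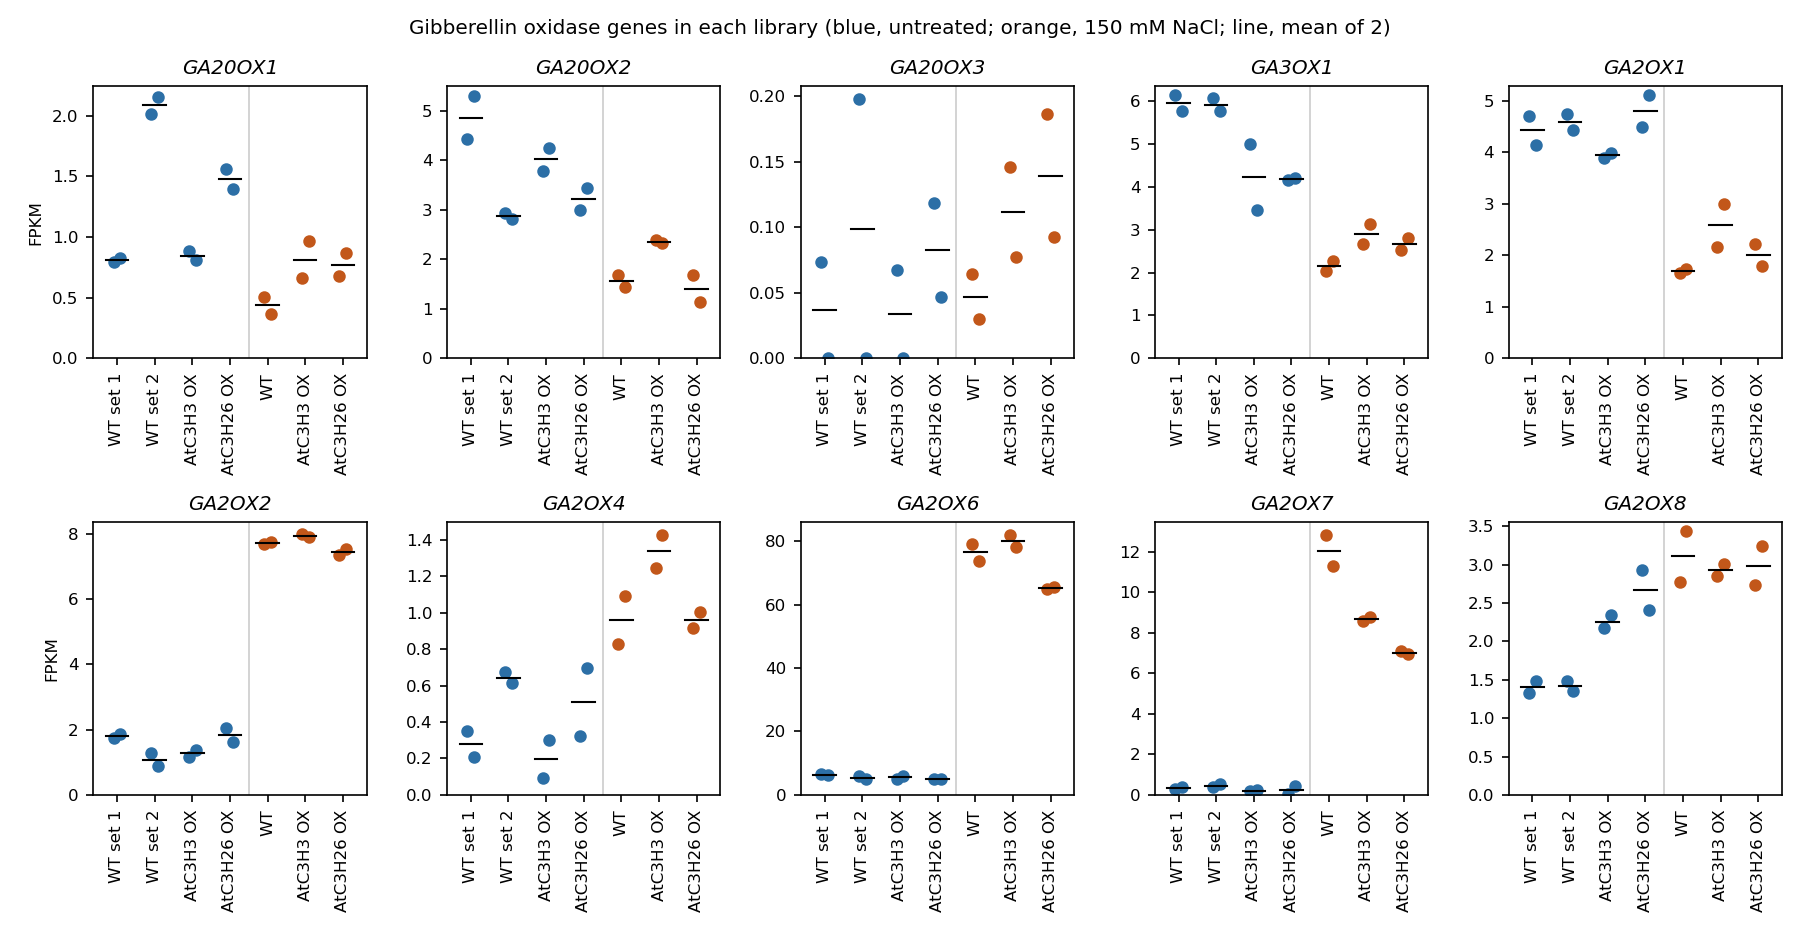
FPKM of the 10 gibberellin oxidase genes (vertical axis, linear, a scale per gene) in each library, by group (horizontal axis); points are libraries, lines are the mean of 2, blue marks untreated and orange NaCl libraries. GA2OX6 sits at 4.96 to 6.47 FPKM in the 8 untreated and at 64.8 to 82.1 FPKM in the 6 NaCl libraries.

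GA2OX6 encodes a 2-oxidase that acts on the shorter-chain gibberellins, the bioactive forms among them, and it was the most abundant member in all 6 NaCl libraries and in 5 of the 8 untreated ones. Its level was 79.2 and 73.9 FPKM in the WT NaCl libraries, against 6.47, 6.18, 5.81 and 4.96 FPKM in untreated WT. It stood at 82.1 and 78.1 FPKM against 5.16 and 5.98 FPKM in AtC3H3 OX, and at 64.8 and 65.5 FPKM against 5.01 and 5.03 FPKM in AtC3H26 OX. Every NaCl library thus lay far above every untreated one. The log2 difference on log2(FPKM + 1) was 3.50 (SE 0.10, limma adjusted p = 2.04e-06) in WT, 3.63 (SE 0.08, adjusted p = 1.14e-06) in AtC3H3 OX and 3.46 (SE 0.06, adjusted p = 3.77e-06) in AtC3H26 OX.

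GA2OX7, whose product acts on the longer-chain precursors of the bioactive gibberellins, went from below 1 FPKM to the second highest level of the members in 4 of 6 NaCl libraries. Untreated libraries ranged from 0.055 to 0.525 FPKM, while the WT NaCl libraries held 12.8 and 11.3 FPKM, the AtC3H3 OX ones 8.61 and 8.77 FPKM and the AtC3H26 OX ones 7.09 and 6.94 FPKM. In the NaCl libraries of AtC3H26 OX it lay below GA2OX2. The log2 difference was 3.23 (SE 0.12, limma adjusted p = 4.04e-06) in WT, 3.0 (SE 0.12, adjusted p = 8.92e-06) in AtC3H3 OX and 2.69 (SE 0.18, adjusted p = 0.00016) in AtC3H26 OX. Since GA2OX7 passed the filter on low values only through its NaCl libraries, it had to differ in order to be tested. The ratios of mean FPKM, 30.6 in WT, 41.3 in AtC3H3 OX and 27.6 in AtC3H26 OX, rest on untreated values near 0.

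GA2OX2, a further 2-oxidase of shorter-chain gibberellins, was 7.68 and 7.73 FPKM in the WT NaCl libraries and 1.75, 1.86, 1.28 and 0.874 FPKM in untreated WT. In AtC3H3 OX it was 7.99 and 7.89 FPKM under NaCl and 1.16 and 1.38 FPKM without. In AtC3H26 OX it was 7.34 and 7.53 FPKM under NaCl and 2.04 and 1.63 FPKM without. The 6 NaCl libraries fell into a narrow band in all genotypes, and the untreated level varied more than the treated one. The log2 differences were 1.85 (SE 0.18, limma adjusted p = 0.000267), 1.98 (SE 0.11, adjusted p = 3.38e-05) and 1.57 (SE 0.12, adjusted p = 0.000226), respectively.

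GA2OX8, like GA2OX7 a 2-oxidase of the longer-chain precursors, rose in WT by a smaller change and was not called in the lines. In WT it was 2.77 and 3.45 FPKM under NaCl against 1.33, 1.49, 1.49 and 1.35 FPKM without (log2 difference 0.76, SE 0.12, limma adjusted p = 0.00178). In AtC3H3 OX it was 2.85 and 3.01 FPKM against 2.17 and 2.35 FPKM (0.27, SE 0.12, adjusted p = 0.0885), and in AtC3H26 OX 2.73 and 3.25 FPKM against 2.94 and 2.41 FPKM (0.12, SE 0.14, adjusted p = 0.496). The NaCl libraries of the 3 genotypes overlapped, and the untreated libraries of both lines lay above all 4 untreated WT libraries.

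GA2OX4, another 2-oxidase of shorter-chain gibberellins, was low throughout, at 0.83 and 1.09 FPKM in WT under NaCl and 0.21 to 0.672 FPKM in untreated WT. It was tested only in AtC3H3 OX, where it went from 0.0922 and 0.302 FPKM to 1.24 and 1.43 FPKM (log2 difference 0.97, SE 0.18, limma adjusted p = 0.00448) and again passed the filter only through the NaCl libraries. In AtC3H26 OX it was 0.916 and 1.00 FPKM under NaCl and 0.322 and 0.696 FPKM without. Every NaCl library lay above every untreated one within each genotype.

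GA2OX1, the sixth 2-oxidase gene and one that also acts on shorter-chain gibberellins, went the other way. It was 1.66 and 1.72 FPKM in the WT NaCl libraries against 4.71, 4.14, 4.74 and 4.43 FPKM in untreated WT (log2 difference -1.03, SE 0.10, limma adjusted p = 0.000189). In AtC3H3 OX it was 2.17 and 2.99 FPKM against 3.89 and 3.98 FPKM (-0.47, SE 0.14, adjusted p = 0.0308), and this call was lost without the first NaCl library (adjusted p = 0.096) or either untreated one (0.095 and 0.11). In AtC3H26 OX it was 2.22 and 1.79 FPKM against 4.49 and 5.11 FPKM (-0.95, SE 0.13, adjusted p = 0.00216). GA2OX1 was thus the only 2-oxidase gene of the 6 that was lower under NaCl, and it was lower in every NaCl library than in any untreated library of its genotype.

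Among the member synthesis genes, GA3OX1, which encodes one of the main 3-oxidases of vegetative growth, had the clearest change in WT. It was 2.04 and 2.27 FPKM under NaCl against 6.15, 5.77, 6.07 and 5.77 FPKM without, a log2 difference of -1.14 (SE 0.09, limma adjusted p = 8.39e-05). In AtC3H26 OX it was 2.54 and 2.81 FPKM against 4.15 and 4.20 FPKM (-0.50, SE 0.11, adjusted p = 0.0122), a call lost without the first NaCl library (0.06) or either untreated one (0.051 and 0.055). In AtC3H3 OX it was 2.68 and 3.14 FPKM against 5.0 and 3.47 FPKM (-0.41, SE 0.17, adjusted p = 0.0804), where the untreated replicates were far apart and the value passed without the second of them (0.023). The groups did not overlap in any genotype.

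GA20OX2, a 20-oxidase gene, was 1.69 and 1.44 FPKM in the WT NaCl libraries and 4.43, 5.30, 2.94 and 2.81 FPKM in untreated WT, set 1 lying above set 2. It was 2.39 and 2.33 FPKM against 3.78 and 4.26 FPKM in AtC3H3 OX, and 1.68 and 1.13 FPKM against 3.0 and 3.45 FPKM in AtC3H26 OX. It was lower under NaCl in every genotype without overlap. The log2 differences were -0.89 (SE 0.22, limma adjusted p = 0.015), -0.58 (SE 0.11, adjusted p = 0.00591) and -0.82 (SE 0.16, adjusted p = 0.00807), and the WT call was lost without the first or the second NaCl library (adjusted p = 0.065 and 0.097).

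GA20OX1, the 20-oxidase gene known for its part in stem elongation, was 0.508 and 0.37 FPKM in WT under NaCl and 0.793, 0.828, 2.01 and 2.16 FPKM in untreated WT, where only set 2 was above 1 FPKM, so that it was tested only through set 2. The WT log2 difference of -0.72 (SE 0.28) did not pass (limma adjusted p = 0.0713), whereas against set 2 alone it was -1.10 (adjusted p = 0.0015), and it passed without the first or the second library of set 1 (0.041 and 0.047). Only set 2 reached 1 FPKM in these fits, so that GA20OX1 had to differ in order to be tested. In AtC3H26 OX it was 0.676 and 0.871 FPKM under NaCl against 1.56 and 1.40 FPKM (-0.49, SE 0.15, adjusted p = 0.0401), a call lost without the first or the second NaCl library (0.16 and 0.074). Since both NaCl libraries were below 1 FPKM, it passed the filter there only through the untreated group and had to differ in order to be tested. In AtC3H3 OX it was 0.661 and 0.967 FPKM against 0.881 and 0.814 FPKM, overlapping and not tested. GA20OX3, the third 20-oxidase gene, reached at most 0.198 FPKM, was listed at 0 in 3 libraries and entered no test.

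In the lines, 4 of 8 members tested rose and 2 fell in AtC3H3 OX, where 31.4% of all genes rose, 29.9% fell and 61.3% were called. In AtC3H26 OX, 3 of 8 rose and 4 fell, where 29.2% of all genes rose, 26.4% fell and 55.6% were called. Of these, 2 of the 4 that rose in AtC3H3 OX (GA2OX4 and GA2OX7), and GA2OX7 and GA20OX1 in AtC3H26 OX, passed the filter only through the group in which they were higher. With libraries scaled to equal upper quartiles, the calls over all genes moved to 4408 higher and 6361 lower in WT in place of 5233 and 5211, to 5124 and 7476 in place of 6275 and 5974 in AtC3H3 OX, and to 4946 and 6481 in place of 5857 and 5292 in AtC3H26 OX. Counting all 10 members, groups did not overlap for 5 higher and 4 lower members in WT, where 32.8% and 33.8% of all genes tested lay so. The counts were 6 higher and 3 lower in AtC3H3 OX (41.2% and 41.1% of all genes tested) and 4 higher and 4 lower in AtC3H26 OX (40.6% and 39.4%). These shares cover only genes that passed the filter, whereas the counts include members not tested. Such members were GA2OX4 among those higher in WT and in AtC3H26 OX, and GA20OX3 among those higher in AtC3H3 OX. The WT median over the 8 members tested was 0.02 on the log2 scale and that of all genes -0.02, since members moved in both directions.

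**Figure D2:**
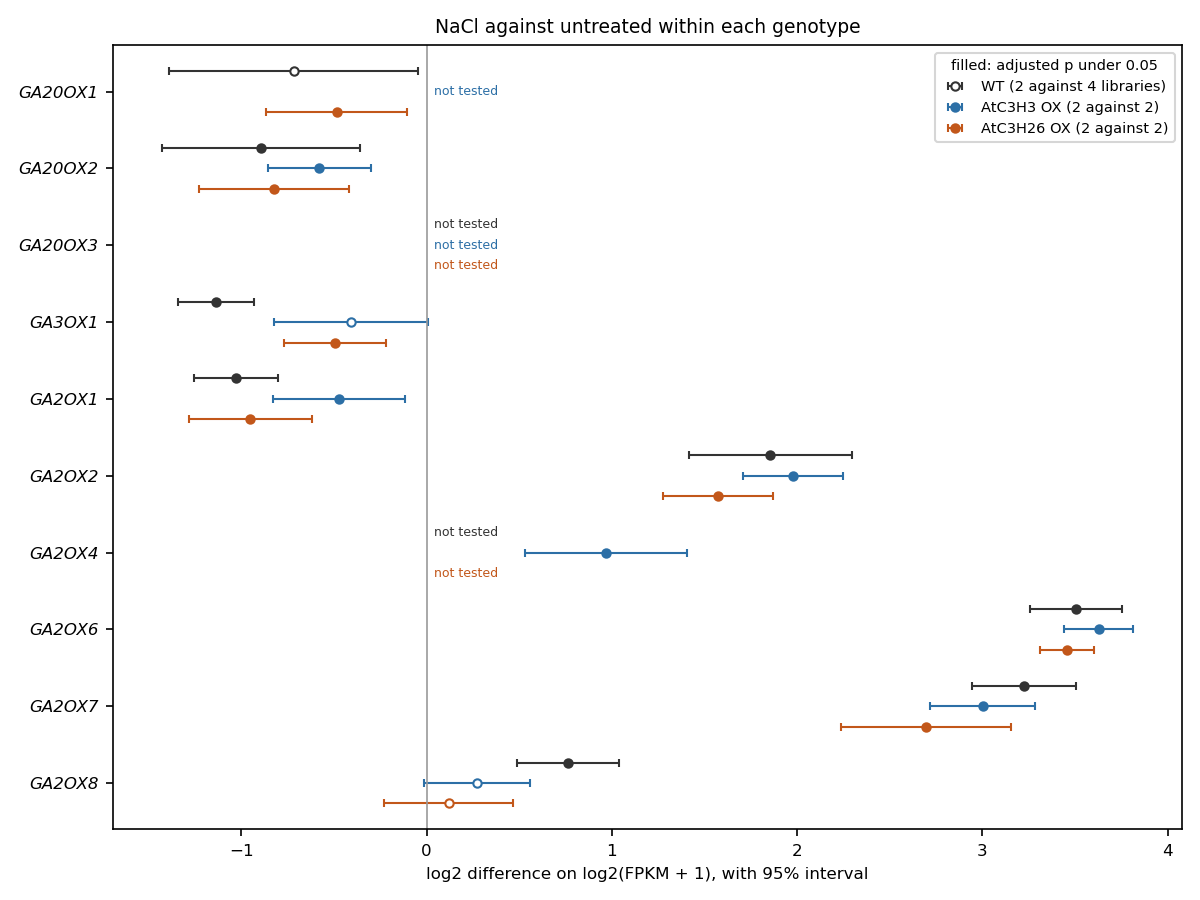
Log2 difference on log2(FPKM + 1), NaCl minus untreated (horizontal axis, with its 95% interval), for each member (vertical axis) in WT, AtC3H3 OX and AtC3H26 OX; filled points have a limma adjusted p under 0.05. GA2OX6 stands at 3.50, 3.63 and 3.46 and GA2OX1 on the other side of 0 at -1.03, -0.47 and -0.95.

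The makeup of the 2-oxidase transcripts differed between NaCl and untreated libraries, and a gene's share falls when the sum rises, even at an unchanged level. The summed level of the 6 2-oxidase genes was 12.7 to 15.3 FPKM in untreated libraries (median 14.3) and 85.1 to 105 FPKM in NaCl libraries (median 101). GA2OX6 made up 32.8% to 43.4% of that sum without NaCl and 74.5% to 78.2% with it, while GA2OX1 went from 28% to 34.7% down to 1.58% to 2.93%. GA2OX7 made up 0.37% to 4.12% of the untreated sum and 8.07% to 12.2% of the NaCl sum. GA20OX1, GA20OX2, GA20OX3 and GA3OX1 together summed to 8.54 to 11.9 FPKM in untreated and 4.12 to 6.51 FPKM in NaCl libraries. The ratio of the 2-oxidase sum to this synthesis sum was 1.19 to 1.69 without NaCl and 15.7 to 24.4 with it. GA20OX5 is not a member and was left out, at 0 to 0.106 FPKM without NaCl and 1.48 to 2.82 FPKM with it. GA3OX2, also left out, went the other way (0.841 to 1.60 FPKM without NaCl and 0.172 to 0.501 FPKM with it). These sums describe transcripts, were not tested, and no range of one treatment met that of the other.

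**Figure D3:**
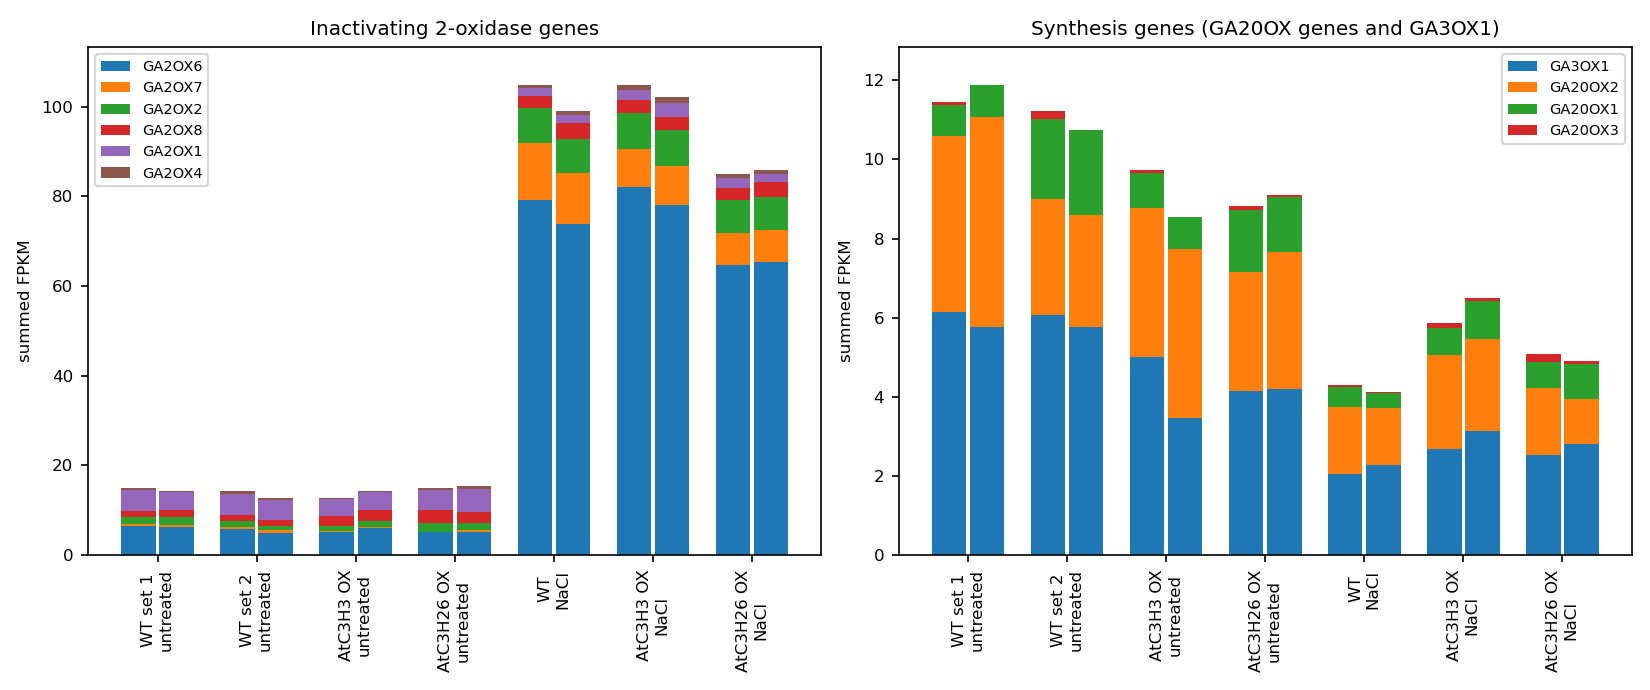
Stacked FPKM of the member 2-oxidase genes (left) and of GA20OX1, GA20OX2, GA20OX3 and GA3OX1 (right) in each library (horizontal axis, 2 bars per group), on different linear scales. The left bars reach 85.1 to 105 FPKM under NaCl and stay at 12.7 to 15.3 FPKM without it, and the right bars are shorter under NaCl.

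To examine whether the lines differed from WT, members were compared under NaCl. None of 8 members tested was called in AtC3H3 OX by limma, with 3 at an unadjusted p under 0.05 (GA20OX2, GA2OX1 and GA2OX7), and 2.67% of all genes were called. In AtC3H26 OX only GA2OX7 was called among 8, where 4.54% of all genes were lower and 7.09% were called in either direction. With 7.09 and 6.94 FPKM it lay below both WT libraries, a log2 difference of -0.70 (SE 0.09, 95% interval -0.92 to -0.49, limma adjusted p = 0.0136), and in AtC3H3 OX the difference was -0.43 (SE 0.09, adjusted p = 0.0653). The AtC3H26 OX call was lost without the first or the second WT NaCl library (adjusted p = 0.117 and 0.0944), fits in which only 7 and 11 genes were called in all.

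GA2OX6 was lower in both AtC3H26 OX NaCl libraries than in the WT ones, with a log2 difference of -0.23 (SE 0.05, 95% interval -0.35 to -0.11, limma adjusted p = 0.0551). In AtC3H3 OX its difference was 0.06 (95% interval -0.06 to 0.19, adjusted p = 0.562). GA2OX2 differed from WT by 0.04 in AtC3H3 OX (95% interval -0.15 to 0.23) and by -0.05 in AtC3H26 OX (-0.23 to 0.14). The intervals of GA20OX2, GA3OX1, GA2OX1 and GA2OX4 were wider, so that differences of up to 0.80 on the log2 scale, the upper bound for GA2OX1 in AtC3H3 OX, lay within them.

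Without NaCl, none of 7 members tested was called by limma in either line, with GA3OX1 and GA2OX8 at an unadjusted p under 0.05 in both, and 0.0449% of all genes were called in AtC3H3 OX and 1.65% in AtC3H26 OX. GA3OX1 was lower in all 4 untreated libraries of the lines (3.47 to 5.0 FPKM) than in the 4 of WT (5.77 to 6.15 FPKM), with log2 differences of -0.42 (SE 0.13, limma adjusted p = 0.341) and -0.42 (SE 0.08, adjusted p = 0.0651). GA2OX8 was higher in all 4 (2.17 to 2.94 FPKM) than in WT (1.33 to 1.49 FPKM), with differences of 0.43 (SE 0.11, adjusted p = 0.288) and 0.60 (SE 0.12, adjusted p = 0.0756). Both lines were set against the same WT libraries. With all 14 libraries in one fit, GA3OX1 and GA2OX8 were called in both lines, with adjusted p between 0.003 and 0.0325.

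**Figure D4:**
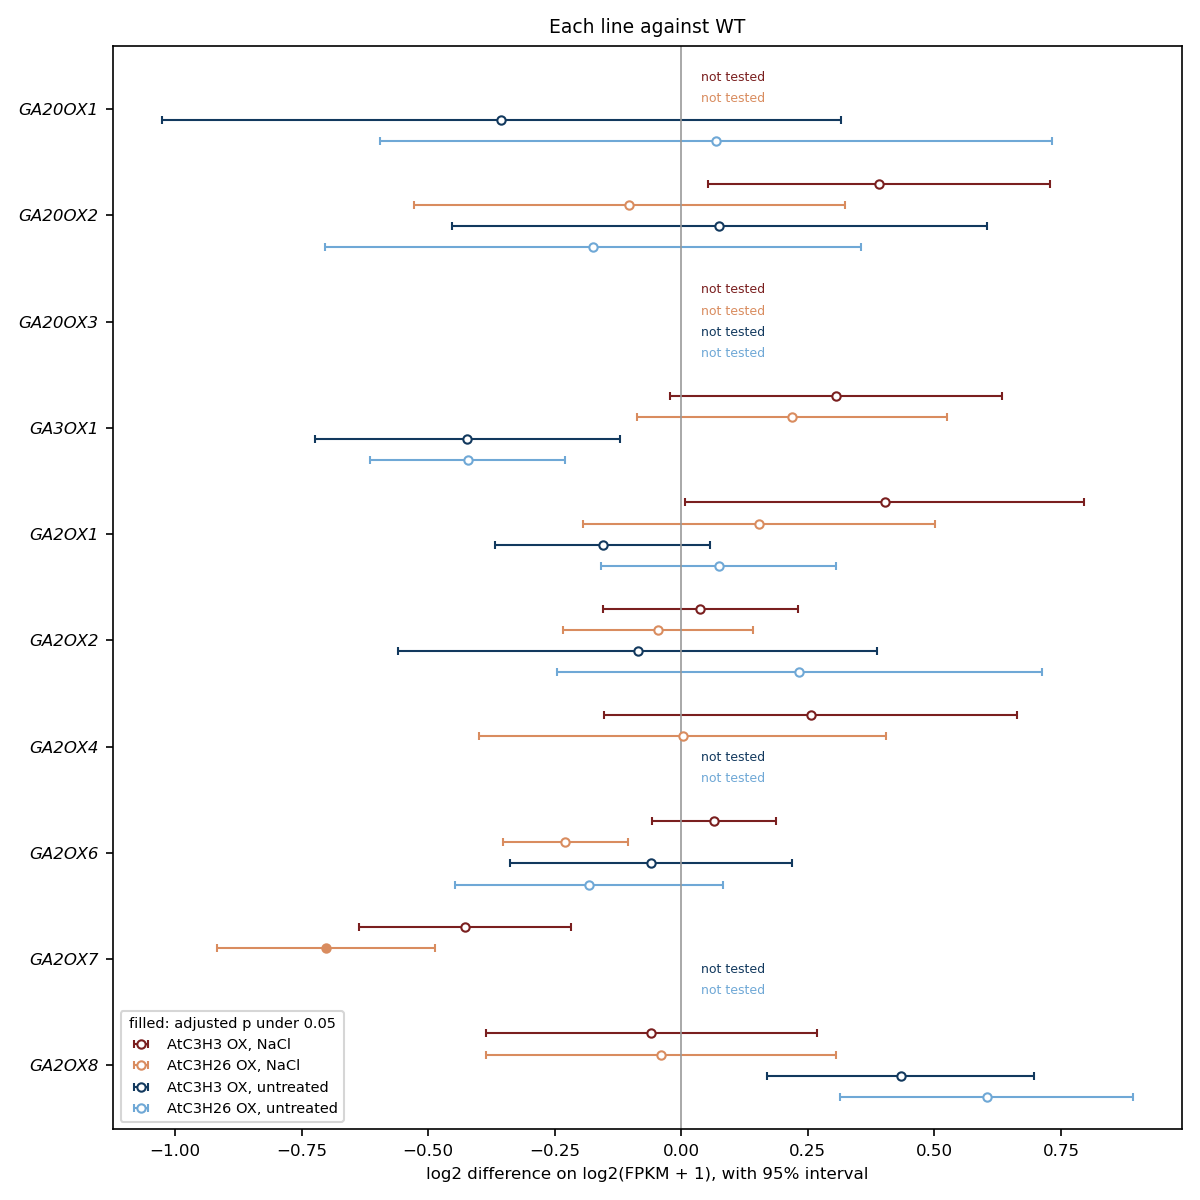
Log2 difference on log2(FPKM + 1), line minus WT (horizontal axis, with its 95% interval), for each member (vertical axis) under NaCl and without it; filled points have a limma adjusted p under 0.05. Only GA2OX7 in AtC3H26 OX under NaCl is filled, at -0.70, and most intervals include 0.

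The salt response itself was then compared between each line and WT by an interaction term. In AtC3H26 OX, GA3OX1 was the only one of 9 members called, where 1.42% of all genes were called. Its fall was smaller in the line than in WT by 0.64 on the log2 scale (SE 0.12, 95% interval 0.37 to 0.91, limma adjusted p = 0.0413), a value made of the lower untreated and the slightly higher NaCl level of the line. Alternatives gave an adjusted p of 0.018 to 0.2, which exceeded 0.05 whenever 1 library was left out. In AtC3H3 OX none of 9 was called, with GA3OX1, GA2OX1 and GA2OX8 at an unadjusted p under 0.05, and 0.0769% of all genes were called. There the interaction was 0.73 for GA3OX1 (SE 0.18, adjusted p = 0.227) and 0.56 for GA2OX1 (SE 0.16, adjusted p = 0.297). Over the alternatives the lowest limma adjusted p was 0.033 for GA3OX1 and 0.02 for GA20OX1, and no other member passed.

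For GA2OX8 the interaction was -0.49 in AtC3H3 OX (SE 0.15, limma adjusted p = 0.319) and -0.64 in AtC3H26 OX (SE 0.17, adjusted p = 0.13). In the main fit its response in the lines was thus not shown to differ from that in WT. The lowest limma adjusted p over the alternatives was 0.031 in AtC3H26 OX, whereas none passed in AtC3H3 OX. For GA2OX6 the interaction was 0.12 (95% interval -0.21 to 0.46) and -0.05 (-0.36 to 0.26), small beside a salt response of more than 3 on the same scale.

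Both 20-oxidase genes that could be tested differed between WT set 1 and WT set 2, in opposite directions. GA20OX1 was higher in set 2 (2.01 and 2.16 FPKM) than in set 1 (0.793 and 0.828 FPKM), a log2 difference of 0.77 (SE 0.15, limma adjusted p = 0.029), and it passed the filter only through set 2, so that it had to differ in order to be tested. GA20OX2 was lower in set 2 by -0.59 on the log2 scale (SE 0.13, adjusted p = 0.0369). The call of GA20OX1 was lost or not tested without any 1 of the 4 libraries, and that of GA20OX2 was lost without any 1 but the first of set 1 (adjusted p = 0.0646 to 0.213). These were 2 of 7 members tested, where 10.1% of all genes were called. The sum of GA20OX1, GA20OX2 and GA20OX3 in untreated libraries stayed between 4.68 and 6.12 FPKM. GA3OX1, GA2OX1 and GA2OX8 differed between the sets by at most 0.04 on the log2 scale.

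The other genes of the gibberellin pathway were examined in WT in the same way, where 25.6% of all genes rose and 25.5% fell. Of the 6 other oxidase genes, 2 were tested. GA20OX5, a 20-oxidase gene, was listed at 0 to 0.106 FPKM in untreated WT and at 2.82 and 2.37 FPKM under NaCl (log2 difference 1.79, limma adjusted p = 8.23e-05), and it too passed the filter only through the NaCl libraries. GA3OX2, a 3-oxidase gene of seedlings, fell by 0.58 (adjusted p = 0.0337), passed only through the untreated libraries, and lost its call without the first or the second NaCl library (0.106 and 0.201). GA20OX4, GA3OX3, GA3OX4 and GA2OX3 did not exceed 0.342 FPKM in any library.

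Of the early synthesis genes, 4 of 5 were tested, and 1 rose and 1 fell in WT, near the 51.1% of all genes called in either direction. KO, which encodes ent-kaurene oxidase, rose from 13.3 to 17.3 FPKM in untreated WT to 23.4 and 24.7 FPKM (0.59, limma adjusted p = 0.0048). KAO2, an ent-kaurenoic acid oxidase gene, fell by 0.40 (adjusted p = 0.00295). Of 4 genes for other routes of inactivation only CYP714A1 was tested, and it was not called (adjusted p = 0.133).

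Of 12 genes of perception and DELLA function, all tested, 6 rose and 1 fell, beside 25.6% and 25.5% of all genes. Of the 6, GID1A, RGL1 and SPY lost their call without the first or the second NaCl library (adjusted p = 0.071 to 0.252). With quantile normalization or equal upper quartiles GID1A (0.102 and 0.0833) and SPY (0.0534 and 0.0597) were not called either, nor was GID1A without a filter (0.0624), with the replicate block (0.0571), with set 1 as the only untreated WT (0.0917) or without any 1 untreated library but the first of set 1 (0.0801 to 0.0849). The receptor gene GID1B went from 4.57 to 6.90 FPKM in untreated WT to 22.14 and 20.01 FPKM (1.71, limma adjusted p = 0.000116), while GID1C differed by -0.03 (adjusted p = 0.791). Among the DELLA genes, RGL3 rose by 1.99 (adjusted p = 6.43e-05), GAI fell by 0.86 (adjusted p = 0.000382) and RGA differed by -0.11 (adjusted p = 0.441). SEC, whose product modifies DELLA proteins with O-linked N-acetylglucosamine, rose by 1.09 (adjusted p = 8.7e-05).

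Of 6 gibberellin response genes, 1 rose and 4 fell in WT, beside 25.6% and 25.5% of all genes. EXPA8, an expansin gene of cell wall loosening, went from 83.3 to 115 FPKM in untreated WT to 3.88 and 4.33 FPKM (log2 difference -4.28, limma adjusted p = 2.51e-06). GASA6 fell by 3.07 and PRE1, a helix-loop-helix gene of cell elongation, by 1.86 (adjusted p = 6.81e-06 and 7.17e-05), and PRE1 passed the filter only through the untreated libraries. GASA1 fell by 0.67 in WT (limma adjusted p = 0.000283) but was called higher under NaCl in AtC3H26 OX, by 0.37. Its interaction there was 1.04 (SE 0.09, limma adjusted p = 0.00172). GASA4 differed by -0.02 in WT and was not called, but was called higher in AtC3H3 OX (0.24) and AtC3H26 OX (0.31). In AtC3H3 OX 2 of the 6 rose and 4 fell, beside 31.4% and 29.9% of all genes. In AtC3H26 OX 3 rose and 3 fell, beside 29.2% and 26.4%. The gene that rose in WT was SCL3 (0.68, limma adjusted p = 0.00104), which encodes a GRAS protein that promotes gibberellin signalling.

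Of 10 genes known to regulate gibberellin oxidase genes, 6 rose and 2 fell in WT, beside 25.6% and 25.5% of all genes. DDF1, DDF2 and CBF1, which are 3 of the 6, passed the filter only through the NaCl libraries and had to differ in order to be tested, and of the 7 others 3 rose (HB12, CBF2 and CBF3) and 2 fell. CBF3 was not called by limma without the second NaCl library (adjusted p = 0.0603). DDF1, an AP2-type factor known to activate GA2OX7 under high salinity, was at most 0.148 FPKM in untreated WT and 17.1 and 17.2 FPKM under NaCl (log2 difference 4.11, limma adjusted p = 1.76e-06). HB12, a homeobox gene whose product represses GA20OX1 in stems, went from 12.7 to 15.1 FPKM to 131 FPKM in both libraries (3.12, adjusted p = 1.49e-06). DDF2 was listed at 0 in every untreated library and at 5.58 and 7.74 FPKM in the WT NaCl libraries, and CBF2 rose by 2.08. KNAT1 and STM, homeobox genes whose products repress GA20OX1 in the meristem, fell (-1.06 and -0.52, adjusted p = 0.000161 and 0.0136), where the call of STM was lost without the first or the second NaCl library (0.0879 and 0.0839).

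Under NaCl, 3 of these regulators were lower in AtC3H26 OX than in WT, where 4.54% of all genes were lower. DDF1 was 10.5 and 8.60 FPKM in AtC3H26 OX (log2 difference -0.79, limma adjusted p = 0.0141), HB12 85.5 and 77.2 FPKM (-0.69, adjusted p = 0.0053) and CBF1 5.31 and 4.66 FPKM (-0.53, adjusted p = 0.039). These calls too were lost without the first or the second WT NaCl library (adjusted p = 0.0845 to 0.227). That of CBF1 was also lost without a filter (0.0939), with all 14 libraries in one fit (0.0973), with the replicate block (0.0604) and without the second AtC3H26 OX library (0.0762). In the same comparison GA2OX7 was lower by the values given above. Of the 4 transcripts of the salt check, 2 were called lower there as well and 0 higher. They were RD29A (mean 1829 FPKM against 2383 FPKM in WT) and COR15A (717.5 against 1228 FPKM). Both calls were lost without the first or the second WT NaCl library, and that of RD29A without a filter (limma adjusted p = 0.0559). A link between GA2OX7, these regulators and the salt transcripts was not tested.

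**Figure D5:**
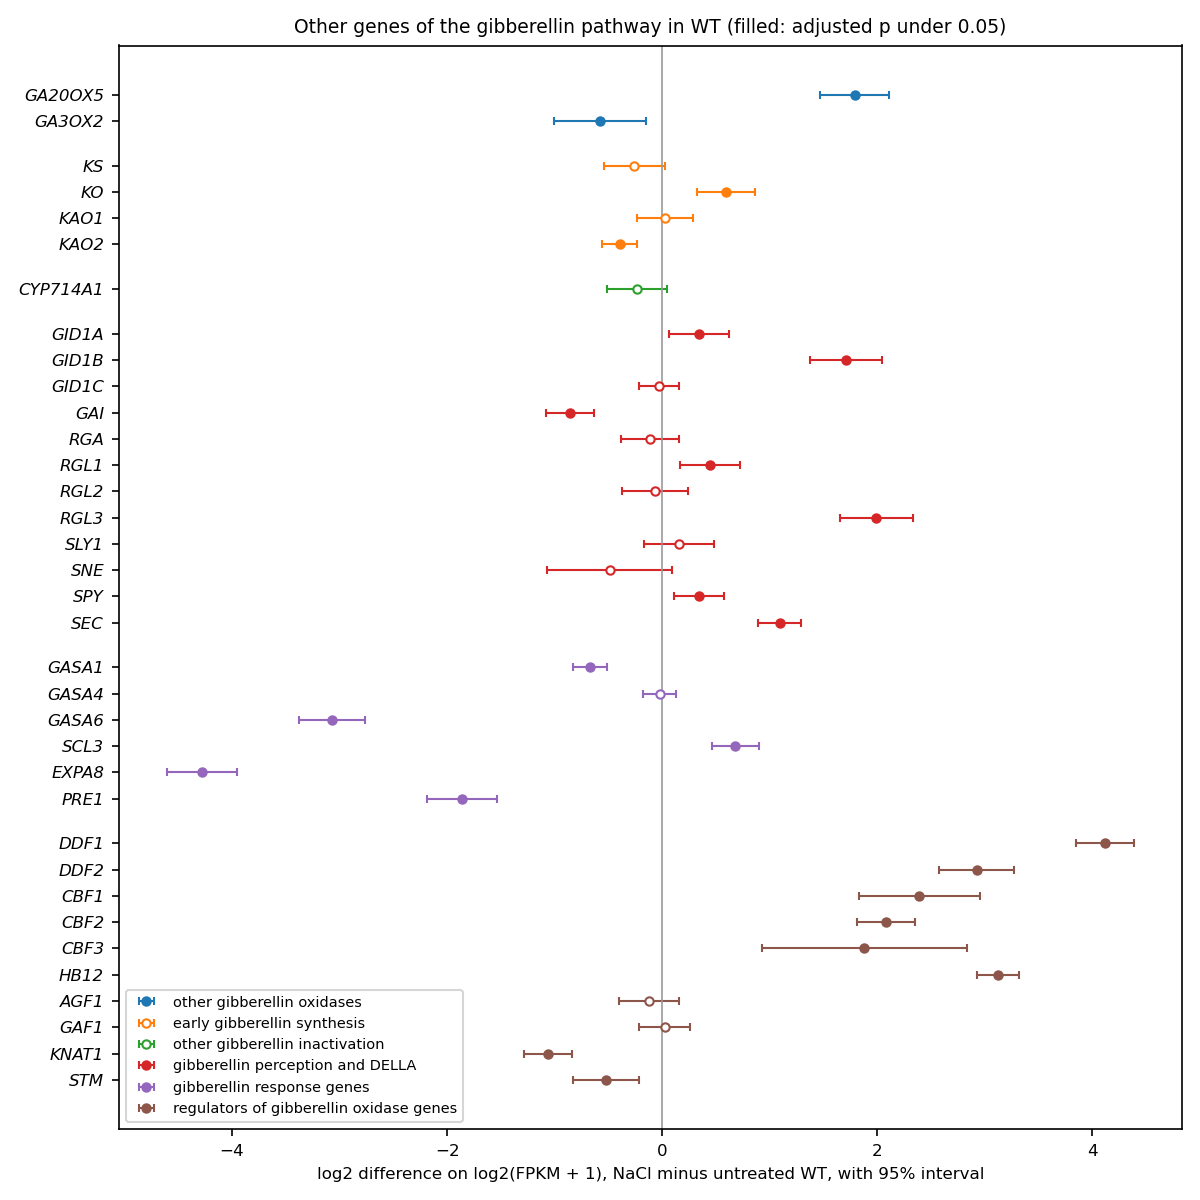
Log2 difference on log2(FPKM + 1), NaCl minus untreated WT (horizontal axis, with its 95% interval), for the tested genes of the gibberellin pathway outside the 10 members (vertical axis), coloured by list; filled points have a limma adjusted p under 0.05. EXPA8 lies lowest at -4.28 and DDF1 highest at 4.11.

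The genes whose levels over the 14 libraries were most like each member were named by Pearson r on log2(FPKM + 1) among 20404 genes, as a description in which the shift between 6 NaCl and 8 untreated libraries weighs most. For GA2OX6 they were PIA1 and F8K4.9 (both r = 0.999), for GA2OX7 UGT73B3 and MSL4 (both r = 0.997), and for GA2OX2 the receptor gene GID1B and DHAR1 (both r = 0.995). For the other members compared r was lower, whichever way they moved. It was 0.978 and 0.977 for CYP702A5 and K5J14.5 with GA2OX1, and 0.970 and 0.965 for AGT and SIG4 with GA20OX2. CCR1 and the gene listed as Altered Phosphate Starvation Response 1 both stood at 0.964 with GA3OX1. With GA20OX1, iqd21 and F10A8.28 stood at 0.946 and 0.942. GA2OX4 was most like HVA22A and SBE2.1 (0.961 and 0.953), and GA2OX8 most like APK and EXO84B (both 0.923).

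Tissue markers were examined because whole seedlings hold shoot and root. None of the 6 shoot and 6 root markers was at 0 in any library. The shoot markers summed to 17875 to 18900 FPKM under NaCl and to 16532 to 22748 FPKM without, and the root markers to 1462 to 1725 FPKM and 1350 to 1874 FPKM. The root sum was mostly PYK10 (1439 to 1700 FPKM under NaCl and 1318 to 1839 FPKM without), whereas COBL9 (0.598 to 1.04 against 1.76 to 3.05 FPKM), SCR (10.01 to 11.5 against 13.1 to 17.3 FPKM) and SHR (3.62 to 4.99 against 6.91 to 8.68 FPKM) were lower in every NaCl library than in any untreated one. In WT, where 51.1% of all genes were called, 2 shoot markers rose (CER1 and FAMA) and 1 fell (LHCB2.1), whereas no root marker rose and 3 of 6 fell (COBL9, SCR and SHR), COBL9 having passed the filter only through the untreated libraries. Without the first or the second NaCl library LHCB2.1 and FAMA were not called, nor was SCR without the second (adjusted p = 0.053 to 0.0813), and their part in the oxidase results was not tested.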

How the data were processed

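mRNA-Seq was made from whole seedlings with a strand-specific kit and paired-end reads, in 2 biological replicates per group. Per the methods and the submitters' processing notes, the authors trimmed reads, mapped them to TAIR10 with TopHat and estimated FPKM with Cufflinks. The deposited FPKM are not quantile normalized, since the upper quartile of values above 0 ranged from 18.2 to 20.2 between libraries. The quantile normalization named in the methods was run as an alternative. With no counts per gene, no count test or counting interval was used. Depth is reported in the study only for the WT and AtC3H3 OX NaCl libraries. A locus was assigned to 37191 of 37980 rows (97.9%) with a TAIR10.1 gene table, and 71 of 73 listed genes were found.

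Values were tested as log2(FPKM + 1) with limma 3.58.1 (trend) in R 4.3.3, keeping genes that reached 1 FPKM in 2 or more of the libraries compared, with p adjusted by the Benjamini-Hochberg method over all genes tested and called under 0.05. This scale makes differences of genes near 1 FPKM smaller than their ratios. Only the libraries being compared entered a fit, and both WT sets formed the untreated WT group (n = 4). The fit was tested on simulated data only for salt in WT and in AtC3H3 OX, with changes placed in genes of mean log2(FPKM + 1) above 2. That test did not cover genes at lower levels, comparisons of a line with WT, or interactions. Replicate numbers did not pair libraries (21 pairs of groups, correlation of deviations -0.06 to 0.10). Alternatives were a pseudocount of 0.1, other filters, quantile or upper quartile scaling, all 14 libraries in one fit, a replicate block, each WT set alone or as separate groups, and each library left out. All 10 members are named, and in each other list up to 4 called genes with the smallest p. The genes RGA, GID1C, SCL3, GASA4, CYP714A1, CBF1, CBF3, KNAT1, STM, GID1A, RGL1, SPY and the markers were named beyond that rule. Their values had been seen by then. Members and lists were chosen with earlier results of these data known. The 2 replicates per group limit precision.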

Additional observations from a re-analysis of the deposited data

Results flagged for a closer look

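The response of GA3OX1 to NaCl differed between AtC3H26 OX and WT by an interaction of 0.64 on the log2 scale (limma adjusted p = 0.0413), with -1.14 in WT and -0.50 in AtC3H26 OX. The adjusted p was 0.2 without the first WT NaCl library and 0.133 without the second.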

How the results depend on the processing

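Over 1091 alternatives of 79 values of single members, 994 kept direction and side of the threshold, 35 were no longer called, 24 became called and 38 changed sign. GA2OX2, GA2OX6 and GA2OX7 kept direction and call in the salt comparison of every genotype under every alternative in which they were tested. GA2OX7, and GA2OX4 in AtC3H3 OX, were not tested with 1 FPKM required in every library, nor where 1 NaCl library was left out. Causes of the changes below were not tested. The number of members called (main value in brackets) was, with at least 1 FPKM required in every library, 1 (0) for AtC3H3 OX and 2 (1) for AtC3H26 OX against WT under NaCl, 1 (0) for untreated AtC3H26 OX against WT and 1 (2) between WT sets, and without a filter 1 (2) between WT sets. With all 14 libraries in one fit it was 2 (0) for each untreated line against WT, 1 (0) for the AtC3H3 OX interaction and 2 (1) for the AtC3H26 OX interaction. With set 2 as the only untreated WT it was 1 (0) for untreated AtC3H3 OX and 1 (0) for its interaction, with set 1 only 1 (0) for untreated AtC3H26 OX, and with separate sets 2 (0) for the latter. The AtC3H26 OX interaction (1) gave 0 without a filter, with quantile normalization, with equal upper quartiles and with the replicate block.

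With 1 library left out, the number of members called ranged from 5 to 8 for salt in WT, from 3 to 6 in AtC3H3 OX and from 4 to 5 in AtC3H26 OX (3 and 4 without the first NaCl library of the line). It was 0 in every case for AtC3H3 OX under NaCl against WT, for both untreated lines and for both interactions, 0 to 1 for AtC3H26 OX under NaCl against WT and 0 to 1 between WT sets.

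Changes of sign were in comparisons of a line with WT, between WT sets or of interactions, and none in a salt comparison within a genotype. With quantile normalization, GA2OX4 in AtC3H26 OX against WT under NaCl became -0.01 and GA3OX1 between WT sets 0.06, and the latter was 0.05 with equal upper quartiles. With WT set 1 only, GA20OX2 in untreated AtC3H3 OX was -0.22, and in the AtC3H26 OX interaction GA20OX1 was -0.15 and GA2OX6 0.05. With WT set 2 only, GA2OX2 and GA2OX6 in untreated AtC3H3 OX were 0.13 and 0.04, GA20OX1 and GA20OX2 in untreated AtC3H26 OX -0.32 and 0.12, GA2OX2 in the AtC3H3 OX interaction -0.10, and GA20OX2 and GA2OX4 in the AtC3H26 OX interaction -0.22 and 0.14. GA2OX7 in the AtC3H3 OX interaction was 0.19 with a pseudocount of 0.1. With 1 library left out, values ranged from -0.18 to 0.06 for GA2OX8 in AtC3H3 OX against WT under NaCl, and in AtC3H26 OX from -0.27 to 0.06 for GA20OX2, -0.09 to 0.04 for GA2OX4 and -0.16 to 0.08 for GA2OX8. They ranged from -0.03 to 0.21 for GA20OX2 and -0.15 to 0.03 for GA2OX6 in untreated AtC3H3 OX, from -0.06 to 0.21 for GA20OX1 and -0.00 to 0.15 for GA2OX1 in untreated AtC3H26 OX, and between WT sets from -0.05 to 0.03 for GA3OX1, -0.03 to 0.12 for GA2OX1 and -0.04 to 0.06 for GA2OX8. In the AtC3H26 OX interaction they ranged from -0.09 to 0.24 for GA20OX2, -0.02 to 0.18 for GA2OX1, -0.22 to 0.14 for GA2OX4 and -0.10 to 0.02 for GA2OX6.

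The replicate block ended 2 calls of members, GA20OX1 under salt in AtC3H26 OX (adjusted p = 0.061) and the GA3OX1 interaction (0.081). Over all genes, the calls for untreated AtC3H3 OX were 9 (2521 with all 14 libraries in one fit, 14 without a filter) and for untreated AtC3H26 OX 333 (3663, and 81 with the replicate block). The interactions had 16 (1246) and 297 (2172) calls, and the WT sets 2005 (3905, and 1150 without a filter). One or the other way of treating the WT sets gave 484 to 2831 calls for untreated AtC3H3 OX, 1896 to 2419 for untreated AtC3H26 OX, 571 to 2300 for the AtC3H3 OX interaction and 1493 to 2141 for that of AtC3H26 OX. The replicate block gave 5 and 4 for untreated AtC3H3 OX and its interaction, and 165 for the AtC3H26 OX interaction. With 1 FPKM required in every library the AtC3H3 OX comparison without NaCl had 1 call and its interaction 0, and a pseudocount of 0.1 gave the former 6 and the latter 9, which had 41 without a filter. With 1 library left out, the lowest count was 6302 of 10444 for salt in WT, 116 of 525 for AtC3H3 OX and 7 of 1394 for AtC3H26 OX against WT under NaCl, 0 of 9 and 17 of 333 without NaCl, 1162 of 2005 between WT sets, and 2 of 16 and 56 of 297 for the interactions. Without a filter, calls under NaCl against WT fell from 525 to 56 in AtC3H3 OX and from 1394 to 677 in AtC3H26 OX. Equal upper quartiles moved the median of all genes under salt to -0.106 in WT, -0.102 in AtC3H3 OX and -0.080 in AtC3H26 OX, quantile normalization to -0.085, -0.072 and -0.061, with 4496 higher and 6155 lower calls in WT, and the latter changed the split between WT sets from 556 higher and 1449 lower to 901 and 1166.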
